A study of Mus musculus with 2 samples.

Results

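Transcription factors of the primitive streak and of mesendoderm were compared between EpiSC and ELA-EpiSC, which are epiblast stem cells obtained from mouse embryonic stem (ES) cells by different routes. The 10 genes were T (Brachyury), Mixl1, Eomes, Mesp1, Evx1, Gsc, Tbx6, Lhx1, Cdx1 and Cdx2. They were taken by name from the array annotation, with every non-control probe of that name, out of 25851 named genes with a detected probe and 16649 genes that also reached the level minimum described below. They were represented by 13 probes of 60 bases. A single probe represented 7 genes, whereas Eomes, Tbx6 and Lhx1 had 2 probes each. Every probe was printed as 1 spot, and all 13 were well above background on both arrays.

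Both groups came from E14Tg2A, an ES cell line of strain 129/Ola grown in serum and leukemia inhibitory factor (LIF). For EpiSC, these cells were placed at once in a serum-free defined medium (N2/B27) that held FGF2 at 12 ng/mL and Activin A at 20 ng/mL. ELA-EpiSC received the same factors after the ES cells had first formed Epiblast-Like Aggregates (ELA), floating aggregates that appear when serum and LIF are withdrawn. Each RNA was pooled from 3 independent sets of experiments and was hybridized to 1 array, so neither group had a replicate and no test between them was possible. The sample titles, descriptions and molecule fields give total RNA of these cells. The source fields instead name undifferentiated cells for both samples, and an Argonaute immunoprecipitate for the EpiSC sample. The titles were followed throughout.

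The primitive streak is the site where cells of the epiblast leave the epithelium and become mesoderm and definitive endoderm. Nodal, which Activin A mimics, together with Wnt, Bmp and Fgf signals switch on a small set of transcription factors there. T marks the whole streak and nascent mesoderm, Mixl1 and Eomes mark the shared precursors of mesoderm and endoderm, Gsc and Lhx1 belong to the anterior end, and Evx1, Cdx1 and Cdx2 to the posterior end. Mesp1 and Tbx6 mark mesoderm that has left the streak, Mesp1 towards heart and head and Tbx6 towards somites. Epiblast stem cells kept in Activin A and FGF2 are known to transcribe several of these genes while they remain pluripotent.

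The 250 bases before the transcription start of T and of Mesp1 are shown because these genes lay at opposite ends of the comparison and were the members with a TCF/LEF word, the DNA word read by the nuclear effectors of Wnt signalling, in that window. Sequences are from RefSeq on GRCm38.p6, written 5′ to 3′ on the strand of the gene, for T at chr17:8434173-8434422 (plus strand) and for Mesp1 at chr7:79793591-79793840 (minus strand). Capitals mark the TCF/LEF words.
T: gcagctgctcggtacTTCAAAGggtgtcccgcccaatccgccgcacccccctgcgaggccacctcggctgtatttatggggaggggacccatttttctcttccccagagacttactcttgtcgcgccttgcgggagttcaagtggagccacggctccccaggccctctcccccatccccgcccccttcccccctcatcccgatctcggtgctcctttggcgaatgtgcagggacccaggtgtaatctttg
Mesp1: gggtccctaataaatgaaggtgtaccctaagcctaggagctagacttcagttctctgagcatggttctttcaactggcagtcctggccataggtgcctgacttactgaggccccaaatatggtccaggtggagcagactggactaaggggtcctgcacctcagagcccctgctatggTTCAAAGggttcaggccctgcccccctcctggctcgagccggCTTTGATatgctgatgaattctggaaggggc
The word CTTTGAA was searched on both strands, as were the word CTTTGAT, then the word CTTTGTA and lastly the word CTTTGTT. The upstream region of T held 1 of them, beginning 235 bases before the start. That of Mesp1 held 2, beginning 73 and 31 bases before it. Among the 8 members with a sequence in the RefSeq table (Mixl1 and Cdx1 were not matched), 2 held a word, against 14.8% of all 32851 upstream regions of this length. At least 2 words stood in 1.43% of all regions. The core word AGGTGT of T-box proteins, the family of T, Eomes and Tbx6, lay in 3 of the 8, beginning 14 bases before the start of T, 233 before that of Mesp1 and 38 before that of Evx1, and in 11.8% of all regions. It shares no base with the words in capitals. The longer word AGGTGTGA was in none of the 8 and in 1.12% of all regions. These matches describe letters only and were searched after the expression values had been seen.

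Levels are given as log2 of the quantile-normalized spot intensity, and differences as log2 ELA-EpiSC minus EpiSC. A gene took its brightest detected probe. Genes were counted where their mean log2 over both arrays was at least 7.5, and a difference of at least 1 was counted as past the threshold. The arrays detected 65.9% (EpiSC) and 65.0% (ELA-EpiSC) of 55681 non-control probes, and no spot was saturated. The only error that could be measured was that of the spots: 399 probes were printed 10 times, and the SD of their difference over those spots was 0.098 for all of them, 0.094 for means under 7.5, 0.108 between 7.5 and 10 and 0.097 from 10 upwards. This SD covers the print and the scan, and not the cultures, the RNA or the labelling. RNA controls added at labelling were detected by 8 of 10 probes and read lower on the ELA-EpiSC array, with a mean difference of -0.54. Setting them equal added the same amount to every difference and moved the median of all probes to 0.53. The differences below are therefore relative to the bulk of the probes, and members whose sign or threshold depends on this scaling are named.

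T and Mixl1 were higher in ELA-EpiSC, and Mesp1 and Evx1 were higher in EpiSC. Of the 8 members that reached the level minimum, 2 passed the threshold towards ELA-EpiSC, against 4.54% of all 16649 genes, and 2 passed it towards EpiSC, against 4.46%. In either direction 4 of 8 (50.0%) passed, against 9.0% of all genes. Without replicates these shares describe a pair of RNA pools. The members were also chosen with earlier results of these data known. The shares and the medians below are therefore no measure of enrichment. Cdx1 and Cdx2 remained under the minimum. Irrespective of size, 6 of the 10 genes were higher in ELA-EpiSC and 4 were lower. The members did not share a direction: their median difference was 0.03 for the 8 past the minimum, against 0.00 for all genes, while the median of their absolute differences was 0.78, against 0.28 for all genes. The SD of the 8 differences was 1.41. The central 95% of genes lay between -1.32 and 1.37, and T, Mixl1 and Mesp1 were outside this range.

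**Figure D1:**
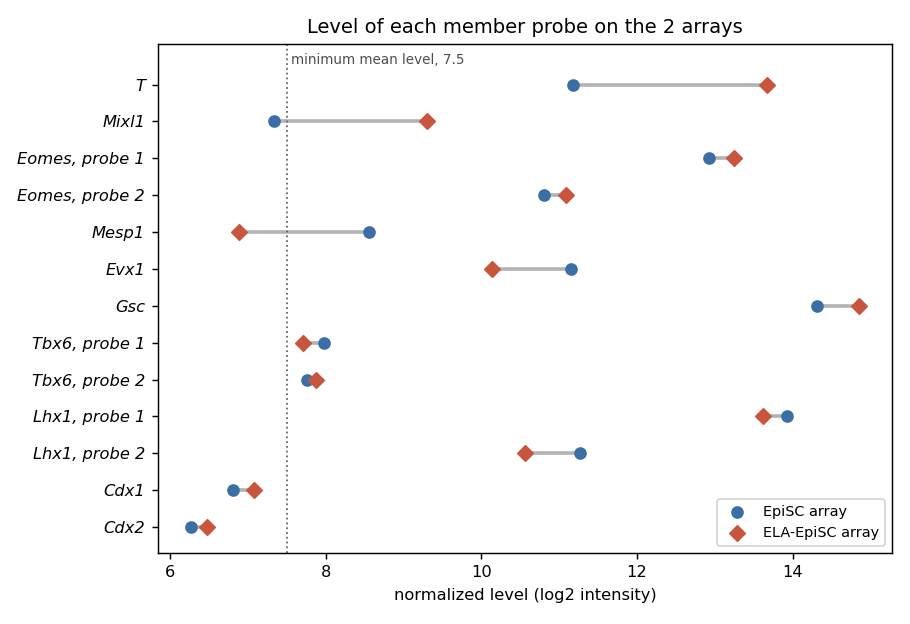
Normalized level (log2 intensity, horizontal axis) of each of the 13 probes in EpiSC (circles) and in ELA-EpiSC (diamonds), 1 spot per probe and array, with a grey line joining the 2 values of a probe and a dotted line at 7.5. T runs from 11.18 to 13.66 and Mixl1 from 7.33 to 9.30, Mesp1 runs the other way from 8.55 to 6.89, and the symbols of Eomes, Tbx6, Cdx1 and Cdx2 lie close together. Levels of different probes are not comparable with each other.

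T, the founding T-box factor and a direct target of Wnt signalling, had the largest difference of the 10 genes. Its probe (A_55_P2029161, mm9 chr17:8635302-8635361, plus strand) gave raw spot intensities of 2074 for EpiSC and 13950 for ELA-EpiSC, with a local background of 26 around either spot. The normalized level was 11.18 in EpiSC and 13.66 in ELA-EpiSC. The transcript was thus well measured in both cell populations and 5.59-fold higher in ELA-EpiSC, a difference of 2.48. That is 25.7 times the spot SD at its level. Among all genes past the minimum, 69 (0.414%) had a larger difference towards ELA-EpiSC. In a bulk sample, a change in the number of cells that transcribe a gene and a change of RNA per cell cannot be told apart, which holds for every gene below.

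Mixl1, a paired-type homeobox factor of the streak, was nearest to T. Its probe (A_52_P533129, mm9 chr1:182624310-182624369, minus strand) gave raw intensities of 116.7 in EpiSC and 656.2 in ELA-EpiSC over backgrounds of 24 and 23. The level was 7.33 in EpiSC and 9.30 in ELA-EpiSC. The difference was 1.97 (3.91-fold), 18.2 times the spot SD, and 161 genes (0.967%) had a larger one. Because the EpiSC spot was dim, this value depended on the background correction and came to 2.38 with no offset. The ratio of background-subtracted raw intensities was 6.83 for Mixl1 and 6.80 for T, so that on the unadjusted scale these genes differed by nearly the same factor.

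Eomes, the T-box factor that acts with Nodal signals in mesendoderm, differed little. The brighter probe (A_55_P2150717, mm9 chr9:118394425-118394484) read 12.92 in EpiSC and 13.24 in ELA-EpiSC. The other (A_55_P2184434, mm9 chr9:118395189-118395248) read 10.81 and 11.09. The probes thus gave differences of 0.32 and 0.29, about 3 times the spot SD (3.33 and 2.96). Raw intensities were 7127 and 10570 on the first probe, so the transcript was far above background on both arrays. The difference of T exceeded that of Eomes by 2.16.

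Tbx6, the T-box factor of presomitic mesoderm, was dim on both arrays and had no settled direction. Its brighter probe (A_55_P2061273, mm9 chr7:133929000-133929059) read 7.97 in EpiSC against 7.71 in ELA-EpiSC and so differed by -0.26. The other probe (A_55_P2061275, mm9 chr7:133928828-133928887) read 7.76 and 7.87, a difference of 0.11, which is 0.98 times the spot SD. Raw intensities were between 171.8 and 219.7 on these spots over backgrounds of 24.5 to 27. The sign of the brighter probe turned to 0.28 when the added RNA controls were set equal.

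Mesp1, the basic helix-loop-helix factor of mesoderm leaving the streak, had the largest difference towards EpiSC among the members. Its probe (A_51_P341725, mm9 chr7:86937140-86937199, minus strand) gave raw intensities of 312.3 in EpiSC and 95.67 in ELA-EpiSC over backgrounds of 26 and 30. The level was 8.55 in EpiSC and 6.89 in ELA-EpiSC. The transcript was 3.16-fold higher in EpiSC, a difference of -1.66 or 15.4 times the spot SD. Among all genes, 249 (1.5%) lay lower. Both spots were dim, and the estimate ran from -2.49 with the processed signal of the scanner software to -1.13 with the added controls set equal, without losing its sign or its place past the threshold. The differences of T and Mesp1 were 4.14 apart.

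Evx1, an even-skipped-type homeobox factor of the posterior streak, lay at the threshold. Its probe (A_55_P2125521, mm9 chr6:52268298-52268357, plus strand) gave raw intensities of 2035 in EpiSC and 1219 in ELA-EpiSC over backgrounds of 25 and 22. The level was 11.16 in EpiSC and 10.14 in ELA-EpiSC. The difference was -1.02 (2.03-fold higher in EpiSC). That was 10.6 times the spot SD, and 714 genes (4.29%) lay lower. The difference stayed below 0 under all 12 other settings but passed the threshold under 9 of them. It was -0.95 with the processed signal, -0.78 with the median of each array and -0.48 with the added controls set equal. The difference of Mixl1, the other homeobox gene past the threshold, was 2.98 higher than that of Evx1.

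**Figure D2:**
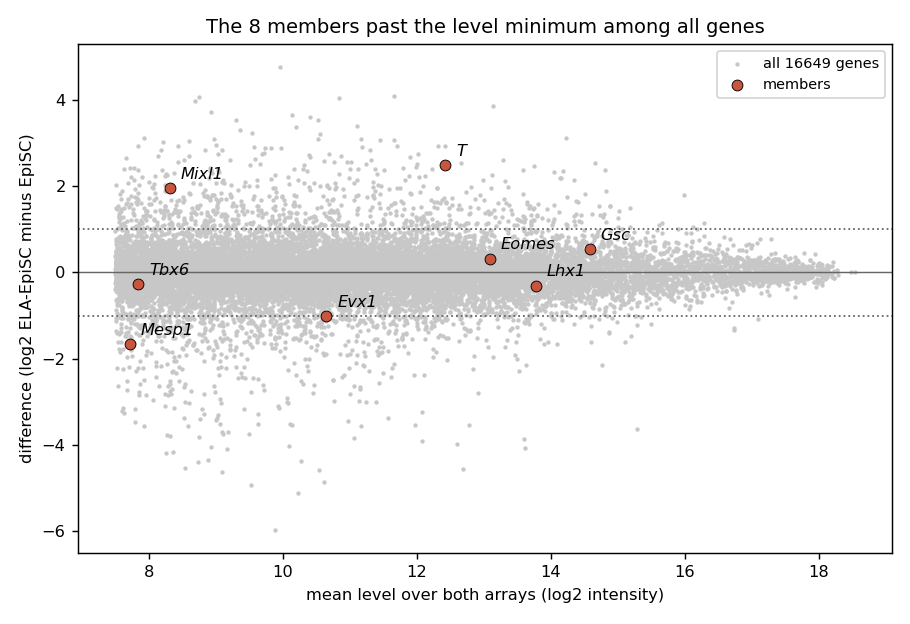
Difference (log2 ELA-EpiSC minus EpiSC, vertical axis) against mean level over both arrays (log2 intensity, horizontal axis) for all 16649 genes past the minimum (grey) and the 8 members among them (red, named). T and Mixl1 lie above the dotted line at 1, Mesp1 lies below the one at -1 and Evx1 on its edge, and Eomes, Gsc, Tbx6 and Lhx1 lie within the band that holds most genes.

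Gsc and Lhx1, homeobox factors of the anterior streak and the node, were bright on both arrays and differed little, in opposite directions. The Gsc probe (A_51_P370717, mm9 chr12:105709426-105709485, minus strand) gave raw intensities of 19210 and 30030, levels of 14.31 in EpiSC and 14.85 in ELA-EpiSC, and a difference of 0.54 (1.46-fold), 5.62 times the spot SD. It passed the threshold under 1 of 12 other settings, at 1.08 with the added controls set equal. Lhx1 was lower in ELA-EpiSC on both probes. The brighter probe (A_52_P652336, mm9 chr11:84331888-84331947, minus strand) read 13.93 in EpiSC against 13.62 in ELA-EpiSC and differed by -0.30. The other (A_55_P2231244), whose bases span mm9 chr11:84335442-84335594, read 11.27 and 10.56, a difference of -0.71 or 7.37 times the spot SD. The brighter probe turned to 0.23 with the added controls set equal, whereas the dimmer one remained at -0.18. The difference of Gsc was 0.85 higher than that of Lhx1.

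Cdx1 and Cdx2, caudal-type homeobox factors of the posterior body axis, were close to background in both populations. The Cdx1 spot had a raw intensity of 76.81 in EpiSC and 114.6 in ELA-EpiSC over backgrounds of 27 and 30, and levels of 6.81 and 7.08. The Cdx2 spot had raw intensities of 42.95 and 62.82 over backgrounds of 25 and 30, and levels of 6.27 and 6.47. For Cdx2 these levels lie next to the lowest signal of any detected probe, 5.89 for EpiSC and 6.11 for ELA-EpiSC. The differences, 0.27 for Cdx1 and 0.20 for Cdx2, were 2.87 and 2.13 times the spot SD. That of Cdx2 turned to -0.10 when the arrays were aligned on the 75th percentile after the same correction, and reached 0.93 with the processed signal. Cdx2 is also a trophectoderm factor.

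**Figure D3:**
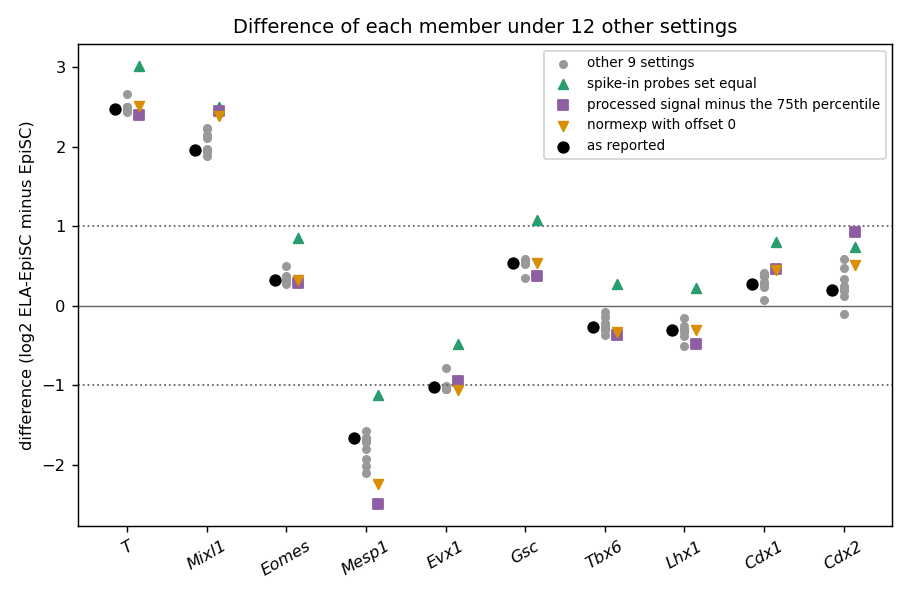
Difference (log2 ELA-EpiSC minus EpiSC, vertical axis) of each of the 10 genes as reported (black) and under 12 other ways of processing the same arrays (grey and coloured symbols), with dotted lines at 1 and -1. All values of T (2.40 to 3.02) and Mixl1 (1.89 and more) lie above 1 and all of Mesp1 (-2.49 to -1.13) below -1, those of Evx1 straddle -1, and those of Tbx6, Lhx1 and Cdx2 fall on both sides of 0.

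The probes were checked for shared sequence. Among probes of other genes that shared a run of 12 bases with a member probe, none matched it at more than 51.7% of its bases, and 12 of the 13 carried a RefSeq accession of the named gene (the brighter Lhx1 probe, whose value stands for the gene, carries an Ensembl transcript). Genes near the members in mm9 were read as well, a search added after the values were known. Distances run from the outer end of a member's probes to the middle of the other probe, and are not distances between genes. The probe nearest to Evx1, 9885 bases away, belongs to 5730457N03Rik, which RefSeq lists as Evx1os, a long noncoding RNA next to Evx1. It read 7.60 in EpiSC against 6.95 in ELA-EpiSC and differed by -0.64, on the same side of 0 as Evx1. Mesp2, the paralog 20679 bases from Mesp1, was dim at 6.97 and 6.70, a difference of -0.28. Lin9, 3752 bases from Mixl1, differed by 0.17, T2, 19803 bases from T, by 0.01, and Ppp4c, 639 bases from Tbx6, by -0.27. Of 28 probes of other names within 50000 bases of a member, the only detected one that differed by more than 1 was 4930451I11Rik near Tbx6, which was detected in ELA-EpiSC alone at 7.29 and whose mean of 6.61 was under the level minimum.

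Genes of the signalling pathways that act in the streak differed in both directions, and those past the threshold lay more often towards ELA-EpiSC. For this list and those below, the shares of all genes past the threshold were 4.54% towards ELA-EpiSC and 4.46% towards EpiSC. Of 17 genes for ligands, co-receptors and effectors of Nodal, Wnt, Bmp and Fgf signalling, 15 reached the minimum (median 0.31). Irrespective of size, 8 of the 15 were higher in ELA-EpiSC and 7 were lower. The threshold was passed by 6 genes towards ELA-EpiSC and by 3 towards EpiSC. Those higher in ELA-EpiSC included Bmp4 (9.31 to 11.09, a difference of 1.77), Nodal (12.93 to 14.42, 1.49), Wnt3 (10.04 to 11.46, 1.42) and Fgf8 (13.68 to 14.99, 1.31). Of the 3 probes of Fgf8, the lowest gave 0.45. Bmp4 and Wnt3 act upstream of Nodal in the epiblast, and Fgf8 is needed for cells to leave the streak. The 3 genes past the threshold towards EpiSC were Gdf3, Wnt5a (-1.44) and Fgf4 (-1.41). Gdf3, a Nodal-related ligand, differed by -1.62 on its brighter probe and by -0.68, under the threshold, on the other. Wnt5a signals mostly without β-catenin. With the added controls set equal, Wnt5a (-0.91) and Fgf4 (-0.88) no longer passed, which left 6 genes towards ELA-EpiSC and 1 towards EpiSC. Wnt3a was not detected on either array.

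Genes that respond to Wnt and Nodal lay on the side of T. Of 13 such genes 11 reached the minimum, all 11 were higher in ELA-EpiSC on their brightest probe, though not on every probe, and 5 passed the threshold, none of them towards EpiSC (median 0.72). Sp5, a zinc finger factor and direct Wnt target, differed by 2.93, from 10.96 in EpiSC to 13.89 in ELA-EpiSC. Fst, the Activin antagonist follistatin, differed by 2.40, Zic2 by 1.68, and Snai1, the factor that represses E-cadherin as cells leave the epithelium, by 1.13. Axin2, a negative feedback component of the Wnt pathway, differed by 1.36 on its brighter probe and by 0.32 on the other. Cer1 stood at 0.01 and was below 0 under some settings, with a lowest value of -0.25. The count past the threshold was 8 with the added controls set equal. Cdx4 was not detected.

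Genes of later mesoderm were divided between the populations. Of 18 genes 12 reached the minimum, 2 passed the threshold towards ELA-EpiSC and 3 towards EpiSC (median -0.01). Pdgfra, the receptor of paraxial and lateral mesoderm, was higher in ELA-EpiSC by 1.77 and Snai2 by 1.49. Tbx3 (a difference of -3.75, from 11.37 in EpiSC to 7.62 in ELA-EpiSC) and Tbx1 (-3.52, from 10.82 to 7.30) were higher in EpiSC, as was Dll1 on its brighter probe (-2.33, against 0.15 on the other). With the added controls set equal the median was 0.52 and the counts were 3 in either direction. Meox1 was not detected, and Msgn1, a factor of presomitic mesoderm, was detected in EpiSC alone at 6.25, near the lowest detectable signal.

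In a list of endoderm and axial genes, the endoderm genes lay mostly towards EpiSC. Of the 13 genes in the list 11 reached the minimum. None passed the threshold towards ELA-EpiSC and 4 passed it towards EpiSC (median -0.86). Hnf4a, a nuclear receptor of visceral endoderm and liver, differed by -5.12, from 12.79 in EpiSC to 7.67 in ELA-EpiSC. Gata4 differed by -2.39, Hhex by -1.73 and Cxcr4 by -1.24. With the added controls set equal the median was -0.33, 1 gene, Nog (1.17), passed towards ELA-EpiSC and Cxcr4 (-0.70) dropped out, which left 3 towards EpiSC. The axial genes did not share this direction. Nog (0.64) and Chrd (0.26 on its brighter probe, -0.11 on the other) were higher in ELA-EpiSC. Foxj1 (-0.43) was lower and turned to 0.11 with the added controls set equal. Noto, a notochord factor downstream of T in the node, was not detected.

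**Figure D4:**
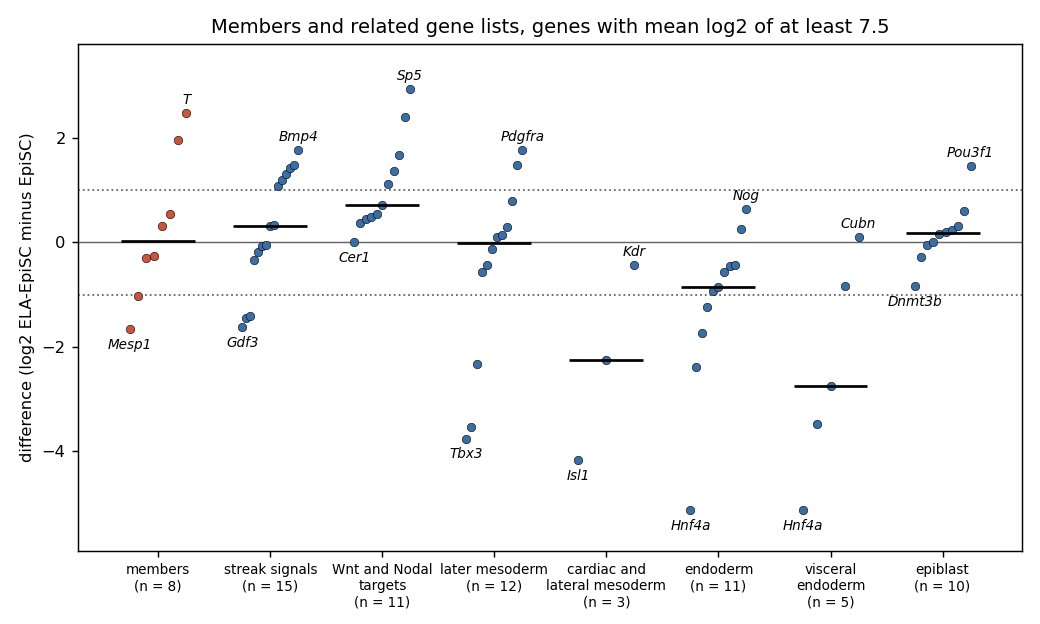
Differences (log2 ELA-EpiSC minus EpiSC, vertical axis) of single genes past the level minimum, 1 point per gene, for the members (red) and 7 lists (blue), with a bar at each median and dotted lines at 1 and -1. The medians are 0.03 for the members, 0.31 for streak signals, 0.72 for Wnt and Nodal targets, -0.01 for later mesoderm, -2.24 for cardiac and lateral mesoderm, -0.86 for endoderm, -2.75 for visceral endoderm and 0.17 for epiblast, and some genes stand in more than 1 list.

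Markers of the cell types that such cultures may hold were read beside these values. All 10 epiblast markers were detected on both arrays. Of these, 7 were higher and 3 lower in ELA-EpiSC, with a median of 0.17, and Pou3f1 alone passed the threshold, at 1.46. Their normalized intensities summed to 358100 in EpiSC and 336200 in ELA-EpiSC. Such a sum adds spots of unequal brightness and can follow 1 probe: without Dnmt3b, which made up 38.5% and 23.0% of the epiblast sums, they were 220300 and 259000, the other way round. Detected markers of other lineages were counted as lower in ELA-EpiSC at any size and level. They were 5 of 8 for visceral endoderm, 5 of 6 for definitive endoderm and 5 of 8 for trophoblast. For cardiac and lateral mesoderm they were 5 of 6, and for paraxial mesoderm 4 of 5. The median difference of all genes past the minimum was 0.00. The paraxial markers that were lower were Dll1 (-2.33 on its brighter probe, 0.15 on the other), Msgn1 (-0.12), Tcf15 (-0.13) and Mesp2 (-0.28). Hes7, the brightest paraxial marker, was higher in ELA-EpiSC (0.30), and Meox1 was not detected. Msgn1 and Mesp2 were under the level minimum. With the added controls set equal, Msgn1 turned to 0.41, Tcf15 to 0.41 and Mesp2 to 0.26. The sums in EpiSC and ELA-EpiSC were 59690 and 29120 for visceral endoderm, 116600 and 85800 for definitive endoderm, 18150 and 6963 for trophoblast, 9303 and 5423 for cardiac and lateral mesoderm and 2889 and 2397 for paraxial mesoderm. Apoe alone, which other tissues also transcribe, made up 84.1% and 96.7% of the visceral endoderm sums, and Kdr 72.7% and 92.4% of the cardiac and lateral mesoderm sums. Kdr differed by -0.43 on its brighter probe and by 1.49 on the other. The 3 visceral endoderm markers that were higher in ELA-EpiSC were Sox7 (0.73), Afp (0.21) and Cubn (0.11), all short of the threshold. Among the markers that were lower, Isl1 differed by -4.17, Ascl2 by -3.00, Amn by -2.75, Gata3 by -2.56, Nkx2-5 by -2.24 and Elf5 by -1.48. On the brightest probe of each gene, Tfap2c (trophoblast) alone of the endoderm, trophoblast and mesoderm markers passed the threshold the other way, at 1.16. On the quantile-normalized scale, Ttr was at least 10.7-fold higher in EpiSC, Myl7 at least 6.88-fold and Apoa1 at least 4.02-fold. None of them was well above background in ELA-EpiSC. With the added controls set equal the folds were smaller, with differences of -2.93 for Ttr, -2.26 for Myl7 and -1.48 for Apoa1. Tbx5 was not detected on either array. The 6 neural markers summed to 6239 in EpiSC and 23030 in ELA-EpiSC, mostly through Nes (a difference of 2.11), with Pax6 not detected. With the added controls set equal, the ELA-EpiSC to EpiSC ratio of these sums remained below 1 for visceral endoderm (0.707), trophoblast (0.556) and cardiac and lateral mesoderm (0.845), whereas it turned above 1 for epiblast (1.36), definitive endoderm (1.07) and paraxial mesoderm (1.20), and Elf5 (-0.94) no longer passed the threshold. The part of these cells in the differences of Mesp1, Evx1, T and Mixl1 was not tested.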

How the data were processed

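Total RNA of 2 samples was measured on one-colour Agilent SurePrint G3 mouse arrays, 1 array per group on 1 slide. The labels state that 50 ng of RNA was labelled with Cy3, whereas the methods of the study state another amount. The deposited scanner files hold the linear intensity of 62976 spots with their local background, not normalized, and per the file headers were made with Feature Extraction 10.7.3.1 (the submitters' processing notes name version 9.1). The authors also deposited log2 values made with limma, by background correction and quantile normalization according to their methods, and these served as an alternative. Probe coordinates are those of mm9, and no exon annotation of that build was used here.

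Mean spot intensity was corrected with normexp (offset 50, on median local background) in limma 3.58.1 under R 4.3.3. The offset draws differences of dim genes towards 0. Control spots and spots marked as outliers (158 in EpiSC and 117 in ELA-EpiSC) were then left out, both arrays were quantile normalized, and log2 was taken. Quantile normalization hides a shift shared by all genes. A probe was called detected if the software had flagged a share of its spots of 0.5 or more as well above background, and a gene took its brightest detected probe. For a gene detected on 1 array, a fold is a bound, with its dim value raised where needed to the weakest signal detected on that array. The number of arrays limits the precision, and no p-value was computed. The script was tested on simulated data.

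The members and the gene lists were chosen with earlier results of these data known. All 10 members are named with each probe. Of the other lists, genes past the threshold are named, up to 4 per direction by size, with those not detected. Snai1, Cer1, Msgn1, Tcf15, Hes7, Nog, Chrd, Foxj1, Dnmt3b, Apoe, Kdr, Sox7, Afp, Cubn and the neighbouring genes were named after their values were seen. The 12 other settings of the differences were other background corrections (no offset, an offset of 16, none), median pixels, the processed signal, alignment on the 75th percentile, the median or cyclic loess, added controls set equal, marked spots kept, the deposited log2 values and the mean of the probes of a gene.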

Additional observations from a re-analysis of the deposited data

How the results depend on the processing

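The sign of the difference was the same under all 12 other settings for 7 of the 10 genes. The exceptions were Tbx6 (0.28) and Lhx1 (0.23) with the added controls set equal and Cdx2 (-0.10) with the 75th percentile after normexp. The count of members past the threshold towards EpiSC, 2 as reported, was 1 with the processed signal, with the median after normexp and with the added controls set equal, since Evx1 dropped out in each. With the added controls set equal the count towards ELA-EpiSC was 3, since Gsc joined T and Mixl1. At a threshold of 2.5 both counts were 0. Over 15 settings, 25 of 30 counts were within 1.5 times the reported ones, a range that holds 3 against 2. One of these settings, detection on both arrays, could not change a count, since all 13 member probes were detected on both. No paired analysis was possible because there was a single array for either group, and for the same reason no array could be left out. Intensity limited the values of Mesp1, Tbx6, Cdx1 and Cdx2 and the EpiSC value of Mixl1, which were the dimmest spots among the members.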
